A study of Pyrus pyrifolia with 6 samples.

Results

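The genes described here encode the enzymes that bring inorganic nitrogen into amino acids, the enzymes that pass the amino group on to asparagine, aspartate, proline and 4-aminobutyrate (GABA), and the carriers that move nitrate, ammonium and amino acids across membranes. They were chosen by product name alone: a protein-coding gene was a member when its deposited product name held 1 of 14 terms, such as glutamine synthetase, asparaginase, NRT1/ or amino acid permease. The rule found 173 of 38969 genes in the table, of which 34996 were protein-coding. Of these, 2 are folylpolyglutamate synthases, enzymes of folate metabolism whose names hold the letters of glutamate synthase, and they are kept apart below.

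The series compared watercore pulp with healthy pulp of the pear Pyrus pyrifolia by RNA sequencing, in 3 libraries of each. Watercore is a fruit disorder in which the spaces between flesh cells fill with fluid and the flesh turns glassy. All 6 libraries came from fruit of the cultivar Qiurong, from trees of 5 years, harvested at a stage labelled 120D, and no treatment other than the sorting of affected and normal pulp after harvest was named. RNA was extracted with CTAB and the libraries were made with the NEB Next Ultra kit. The labels name the organ as fruit skin tissue although the treatment text speaks of pulp, and they differ from the methods of the study in the cultivar name, the day, the age of the trees and the extraction. The methods call the 3 libraries of a group biological replicates of fruit, while the labels do not say whether they came from separate fruit or trees, so the p-values measure the spread between these libraries.

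Plants take up nitrogen as nitrate or ammonium. Nitrate reductase and nitrite reductase reduce nitrate to ammonium, glutamine synthetase joins ammonium to glutamate, and glutamate synthase passes that nitrogen on to make glutamate, from which aminotransferases supply the other amino acids. Asparagine, made by asparagine synthetase and opened again by asparaginase, is a main form in which plants carry and store nitrogen, and proline is made from glutamate and oxidised back to it.

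The libraries held 14431337 to 15290688 counts in watercore pulp and 14382020 to 14871188 counts in healthy pulp, and 27133 to 27293 genes were above 0 in watercore pulp against 24757 to 25105 in healthy pulp. Among markers of other tissues, 26 seed storage and oil body genes summed to 1170 to 1296 FPKM in watercore pulp against 132 to 148 FPKM in healthy pulp, with 10 of the 26 at 0 in every library, 10 tested and 5 higher. The 51 cuticle genes summed to 41.2 to 45.3 FPKM in watercore pulp and 44.7 to 47.4 FPKM in healthy pulp, with 8 tested, 2 higher and 1 lower. The 12 phloem genes summed to 78.75 to 84.25 FPKM in watercore pulp and 63.75 to 73.12 FPKM in healthy pulp. Of these 6 were tested, 2 higher and 1 lower. The 27 chlorophyll-binding genes summed to 65.57 to 66.63 FPKM in watercore pulp and 59.3 to 66.31 FPKM in healthy pulp, with 11 tested, 2 higher and 3 lower. The 14 sorbitol dehydrogenases, enzymes of sorbitol use in pear flesh, summed to 1907 to 2041 FPKM in watercore pulp and 2817 to 2888 FPKM in healthy pulp, although of 12 tested 4 were higher and 1 was lower, with a median log2 fold change of 0.71. By the call rule given below, 17.6% of all tested genes were higher and 7.54% were lower. The part of seed storage transcripts, or of the larger number of detected genes, in the results below was not tested. In bulk tissue, fewer cells of a type and less RNA per cell cannot be told apart. FPKM, the deposited count scaled for gene length and library size, is the scale of every level below unless counts are named.

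More of these genes were higher than lower in watercore pulp. Of the 173 members, 81 had enough counts to be tested, 48 had no count in any library, and the highest count of an untested member in 1 library was 25. Genes were called with edgeR's quasi-likelihood test where the log2 fold change reached 1 in either direction and the p, adjusted by Benjamini-Hochberg over 21200 genes, was under 0.05. By this rule 31 of the 81 were higher in watercore pulp (38.3%, beside 17.6% of all tested genes) and 11 were lower (13.6%, beside 7.54% of all tested genes). With the adjusted p alone, 41 were higher (50.6%, beside 32.3%) and 19 were lower (23.5%, beside 30.4%). In FPKM, all watercore libraries lay above all healthy libraries for 45 of the 81 (55.6%, beside 35.8%) and below them for 20 (24.7%, beside 33.2%). The median log2 fold change was 0.59 over the 81 genes and 0.00 over all tested genes. Of the 31 higher genes, 13 had a healthy library with under 10 counts, and a gene could pass the count filter through either group alone. Among genes with at least 10 counts in every library 20 were higher. The share of all genes higher under that filter was not taken, so this count has no background beside it.

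**Figure D1:**
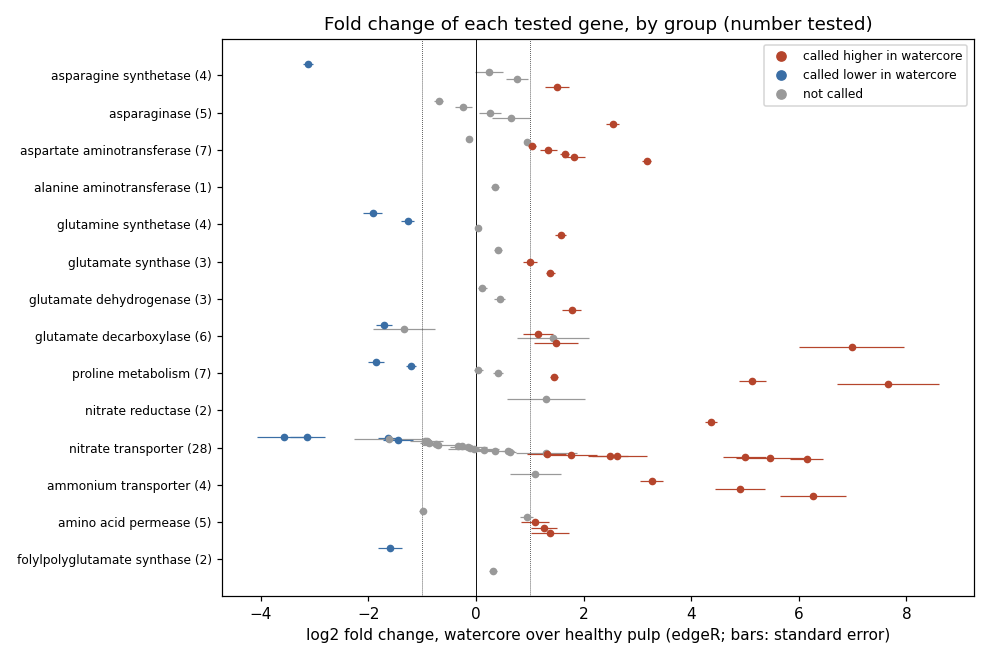
The log2 fold change (x axis, watercore over healthy pulp, edgeR, with its standard error) of each of the 81 tested genes, in rows by group. Dotted lines mark a log2 fold change of 1 in each direction; 31 genes were called higher, 11 lower and 39 were not called, and the largest changes stand among nitrate and ammonium transporters, glutamate decarboxylase and proline metabolism.

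The summed level of the members was 4341 ± 74.5 FPKM in watercore pulp and 3771 ± 71.2 FPKM in healthy pulp (SD, n = 3 each), and they took 0.869% to 0.882% of the counts in watercore pulp against 0.733% to 0.780% in healthy pulp. The groups within that sum moved unequally. Sums of asparaginase, aspartate aminotransferase, glutamate synthase, nitrate reductase, NRT3 and ammonium transporter genes were above healthy pulp by more than 2-fold, whereas sums of asparagine synthetase, proline dehydrogenase, NRT2 and NRT1/PTR genes were below it. For each of these sums the 3 watercore libraries did not overlap the 3 healthy libraries, which in an exact two-sided permutation test gives p = 0.10, the smallest p that 3 libraries against 3 can give. Such separation was common among single genes, with 35.8% of all tested genes above and 33.2% below in every watercore library.

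**Figure D2:**
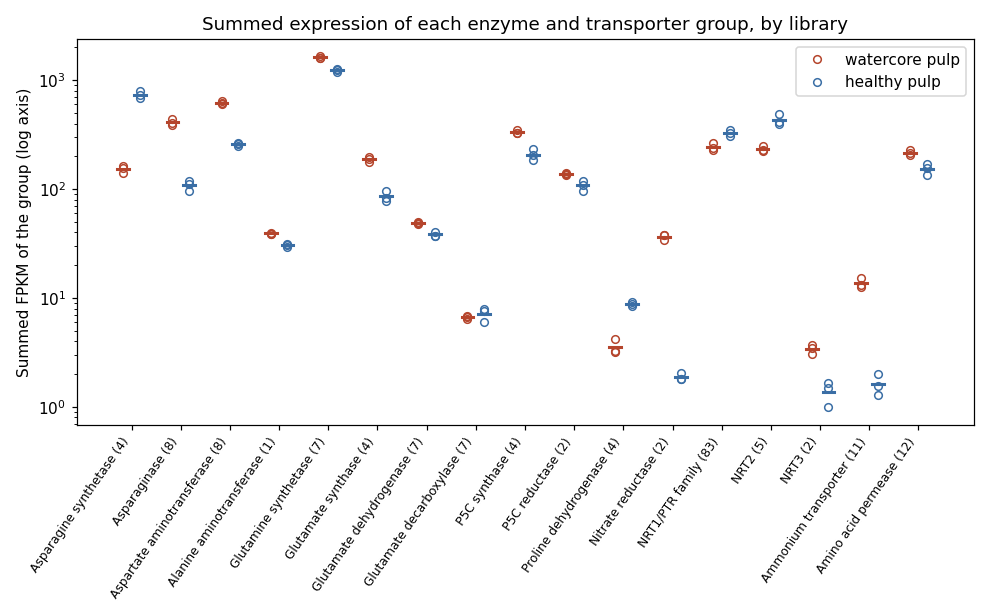
Summed FPKM (log axis) of the genes of each group in the 6 libraries, with the number of genes in the group in brackets, circles for libraries and a line for the mean of 3. Watercore and healthy libraries overlap in glutamate decarboxylase alone among the 17 groups shown, and the widest gap is in nitrate reductase. Among all tested genes taken singly, all watercore libraries lay above all healthy libraries for 35.8% and below them for 33.2%.

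The asparagine synthetases, which make asparagine from aspartate and glutamine, did not all move one way. LOC103945091, the most abundant of 4 asparagine synthetase genes, had 77.1, 90.4 and 73.1 FPKM in watercore pulp, against 744, 642 and 697 FPKM in healthy pulp. Every watercore library was far below every healthy one, and the fold change was 8.72-fold lower in watercore pulp (log2 -3.13, SE 0.10, adjusted p = 9.5e-08). LOC103931235, a second asparagine synthetase, was higher, with 6.79, 8.09 and 9.71 FPKM in watercore pulp and 3.72, 2.78 and 2.04 FPKM in healthy pulp (log2 fold change 1.51, SE 0.22, adjusted p = 0.00033). This gene overlaps a long non-coding RNA gene on the opposite strand over 4797 bases, and without a stated strand setting the reads of the pair may not be told apart. LOC103954503 had a log2 fold change of 0.76 (SE 0.20, adjusted p = 0.0096), under the fold threshold, and LOC103935507 one of 0.24 (SE 0.26, adjusted p = 0.45). The 4 genes together summed to 152 ± 11.9 FPKM in watercore pulp and 739 ± 52.7 FPKM in healthy pulp (SD, n = 3 each). LOC103945091 made up 52.7% of that sum in watercore pulp and 94.0% in healthy pulp, and LOC103954503 made up 31.1% in watercore pulp and 3.78% in healthy pulp.

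Asparaginase releases ammonium from asparagine. Its summed level moved opposite to that of asparagine synthetase, through its most abundant gene. LOC103950574, an isoaspartyl peptidase/L-asparaginase 2, had 374, 406 and 352 FPKM in watercore pulp, against 67.3, 74.5 and 51.2 FPKM in healthy pulp. The libraries did not overlap and the gene was 5.81-fold higher in watercore pulp (log2 2.54, SE 0.13, adjusted p = 8.4e-07). It was 1 of 5 tested asparaginase genes out of 8, and the only one called. LOC103937997 had 16.4, 15.9 and 17.6 FPKM in watercore pulp and 27.9, 27.5 and 24.7 FPKM in healthy pulp, a 1.62-fold lower level (SE 0.09 on the log2 scale, adjusted p = 0.00014) that did not reach the fold threshold. Its neighbour LOC103937989, 1742 bases away, had a log2 fold change of 0.66 (SE 0.36, adjusted p = 0.14), and 1.16 without healthy library 1 with an adjusted p of 0.0095. The asparaginase sum was 411 ± 27.0 FPKM in watercore pulp and 109 ± 11.2 FPKM in healthy pulp (SD, n = 3 each).

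Aspartate aminotransferase moves the amino group between glutamate and aspartate, the precursor of asparagine. Of 8 genes, 7 were tested, and at the call thresholds 5 were higher and none was lower. With the adjusted p alone, 6 were higher and none was lower, beside 32.3% and 30.4% of all tested genes. At the call thresholds, 17.6% of all tested genes were higher and 7.54% were lower. LOC103967404, a mitochondrial form, had 201, 193 and 189 FPKM in watercore pulp and 22.5, 23.3 and 18.3 FPKM in healthy pulp, 9.01-fold higher (log2 3.17, SE 0.09, adjusted p = 7.6e-08). The cytoplasmic LOC103957474, the most abundant, had 260, 258 and 242 FPKM in watercore pulp and 130, 136 and 123 FPKM in healthy pulp. Its libraries did not overlap, but its log2 fold change of 0.95 (SE 0.06, adjusted p = 2.5e-06) stayed under 1. It shares 1136 bases with a long non-coding RNA gene on the same strand.

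The plant aminotransferases that also act on prephenate, an intermediate of phenylalanine and tyrosine synthesis, were higher too. LOC103959277 and LOC103959279 lie 6558 bases apart on the same strand of scaffold NW_008988213.1, at 139680 to 144277 and 150835 to 154238 of the table, whose genome build was not stated. LOC103959277 had 45.6, 45.5 and 43.7 FPKM in watercore pulp and 15.9, 13.4 and 13.3 FPKM in healthy pulp (log2 fold change 1.65, SE 0.08, adjusted p = 8.5e-07). LOC103959279 averaged 12.1 ± 1.63 FPKM in watercore pulp and 3.37 ± 0.95 FPKM in healthy pulp (log2 fold change 1.82, SE 0.21, adjusted p = 7.7e-05). LOC103967024 of the same kind had a log2 fold change of 1.05 (SE 0.07, adjusted p = 3.8e-06), which fell to 0.96 with offsets for gene length. LOC103931295, whose name is aspartate aminotransferase without prephenate, had a log2 fold change of 1.34 (SE 0.16, adjusted p = 9.6e-05). LOC103952230, named aspartate aminotransferase-like, was nearly level, with 59.9 ± 0.49 FPKM in watercore pulp and 64.5 ± 0.46 FPKM in healthy pulp (SD, n = 3 each, log2 fold change -0.12, SE 0.05, adjusted p = 0.058). LOC103951631, the only alanine aminotransferase, which moves an amino group between glutamate and alanine, had a log2 fold change of 0.35 (SE 0.08, adjusted p = 0.0041). The aspartate aminotransferase sum was 621 ± 18.8 FPKM in watercore pulp and 259 ± 10.01 FPKM in healthy pulp.

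Glutamine synthetase was the most abundant group, and its genes differed in direction. LOC103959902, a cytosolic form, had 937, 915 and 907 FPKM in watercore pulp and 887, 890 and 899 FPKM in healthy pulp, with a log2 fold change of 0.03 (SE 0.05, adjusted p = 0.58). LOC103950553, named for the nodule isozyme of legumes, had 683, 663 and 646 FPKM in watercore pulp and 237, 244 and 183 FPKM in healthy pulp. The level of LOC103950553 was 2.98-fold higher in watercore pulp, with no overlap (log2 1.57, SE 0.10, adjusted p = 3.2e-06). LOC103931159, a second cytosolic form, had 27.6, 27.2 and 29.7 FPKM in watercore pulp and 138, 101 and 77.3 FPKM in healthy pulp. It was 3.78-fold lower (log2 -1.92, SE 0.18, adjusted p = 2.6e-05), and its healthy libraries were spread more widely than its watercore libraries. LOC103959439 was lower as well, with 7.67 ± 0.24 FPKM in watercore pulp and 18.3 ± 2.58 FPKM in healthy pulp (log2 fold change -1.27, SE 0.12, adjusted p = 3e-05). Of the summed FPKM of the 7 genes, LOC103950553 made up 41.0% in watercore pulp and 17.8% in healthy pulp, and LOC103959902 made up 56.8% in watercore pulp and 72.2% in healthy pulp. The sum itself was 1620 ± 32.6 FPKM in watercore pulp and 1237 ± 51.3 FPKM in healthy pulp, a ratio of 1.31.

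Glutamate synthase, the partner of glutamine synthetase, takes its electrons from NADH or from ferredoxin. LOC103941488, an NADH form, had 138, 144 and 152 FPKM in watercore pulp and 47.9, 62.3 and 54.4 FPKM in healthy pulp (log2 fold change 1.39, SE 0.09, adjusted p = 3.7e-06). The 2 groups did not overlap, and with offsets for gene length the log2 fold change was 0.94, below the fold threshold. LOC103943433, a second NADH form, had 6.58, 8.26 and 8.60 FPKM in watercore pulp and 3.71, 4.55 and 3.33 FPKM in healthy pulp. Its log2 fold change of 1.0 (SE 0.14, adjusted p = 0.00021) lay at the threshold, was 0.49 with offsets for gene length, and lay between 0.91 and 0.98 without healthy library 1, healthy library 3, watercore library 2 or watercore library 3. The 2 genes are among the longest members, at 6508 and 7274 bases. The ferredoxin form LOC103928813 had 35.8 ± 1.88 FPKM in watercore pulp and 26.8 ± 2.16 FPKM in healthy pulp (SD, n = 3 each, log2 fold change 0.41, SE 0.07, adjusted p = 0.00097). At 5423 bases this gene is long too, and its fold change with offsets for gene length is not given here.

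Glutamate dehydrogenase converts glutamate and 2-oxoglutarate into each other with release or uptake of ammonium. Of 7 genes 3 were tested, and LOC103944408 alone was called, with 3.44, 3.09 and 3.64 FPKM in watercore pulp and 1.07, 0.95 and 0.91 FPKM in healthy pulp (log2 fold change 1.78, SE 0.18, adjusted p = 4e-05). The more abundant LOC103957149, an NADP form, overlapped between groups (24.5 ± 0.78 FPKM in watercore pulp and 22.4 ± 2.34 FPKM in healthy pulp, adjusted p = 0.23). LOC103952775 had a log2 fold change of 0.44 (SE 0.10, adjusted p = 0.0051).

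**Figure D3:**
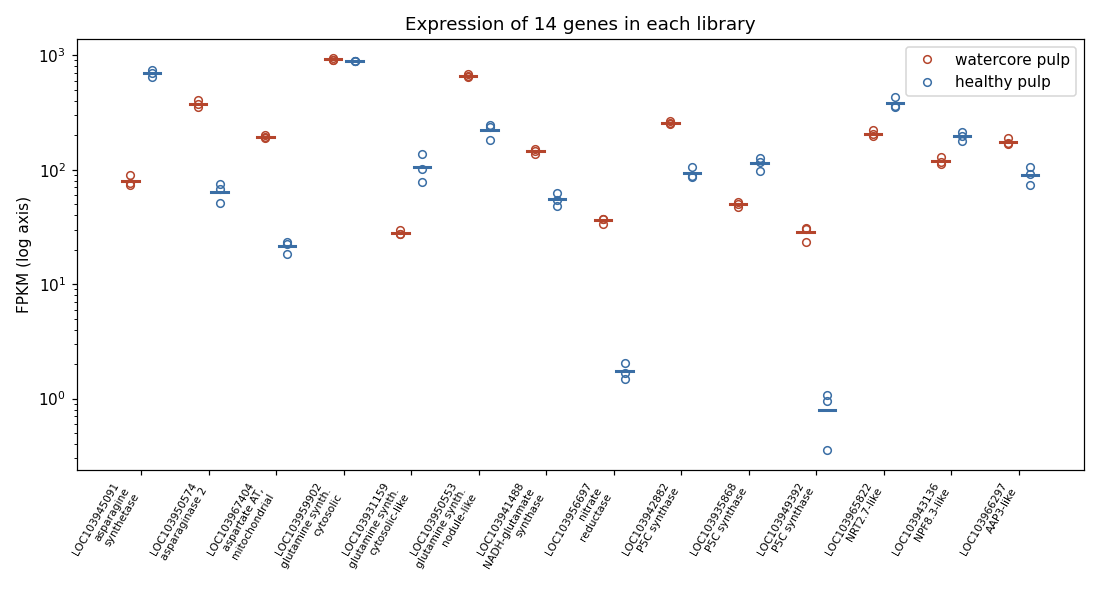
FPKM (log axis) of 14 genes in each library, circles for libraries and lines for the mean of 3. Watercore libraries sit below healthy libraries for the main asparagine synthetase, a cytosolic glutamine synthetase, 1 P5C synthase, NRT2.7-like and NPF8.3-like, and above them for the other 9 genes, narrowly so for LOC103959902, which did not pass the test.

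Glutamate decarboxylase makes GABA from glutamate, and its genes were weakly expressed in both groups. LOC103941354 had 1.25, 1.10 and 1.22 FPKM in watercore pulp and 4.12, 3.96 and 3.50 FPKM in healthy pulp (log2 fold change -1.71, SE 0.15, adjusted p = 1.5e-05). LOC103946880 went the other way, with 3.12, 2.65 and 3.15 FPKM in watercore pulp and 1.61, 0.83 and 1.53 FPKM in healthy pulp (log2 fold change 1.15, SE 0.27, adjusted p = 0.0052). Without healthy library 2, the library with its lowest level, its log2 fold change was 0.91. LOC103943135 had 47 counts over the watercore libraries and none in healthy pulp, at least 15.5-fold higher when the healthy libraries together are set to a floor of 3 counts. It was called higher, but it passed the count filter through watercore pulp alone. LOC103956835 was higher (log2 fold change 1.49, SE 0.40, adjusted p = 0.010), whereas its neighbour LOC103956837, 5784 bases away, had a log2 fold change of 1.43 (SE 0.66, adjusted p = 0.087), or 2.89 without healthy library 1 with an adjusted p of 0.0063. LOC103933810 overlapped between groups (log2 fold change -1.34, SE 0.57, adjusted p = 0.067) and passed the test without healthy library 3 (log2 fold change -1.72, adjusted p = 0.011). The summed FPKM of the group was 6.65 ± 0.27 in watercore pulp and 7.14 ± 1.02 in healthy pulp, with an exact two-sided permutation p = 0.50 (n = 3 each), whereas in CPM (counts scaled for library size alone) the ratio was 0.717 with p = 0.10 by the same exact test. Of that FPKM sum LOC103941354 made up 17.9% in watercore pulp and 54.4% in healthy pulp, and LOC103946880 made up 44.7% in watercore pulp and 19.1% in healthy pulp.

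Proline synthesis held genes that moved in opposite directions. Of the 2 tested proline oxidation genes, 1 was lower and 1, without a count in healthy pulp, was higher. Pyrroline-5-carboxylate (P5C) synthase makes the first committed intermediate from glutamate. LOC103942882 had 250, 268 and 255 FPKM in watercore pulp and 87.4, 106 and 86.9 FPKM in healthy pulp (log2 fold change 1.45, SE 0.08, adjusted p = 1.6e-06). LOC103935868 had 47.4, 50.0 and 51.8 FPKM in watercore pulp and 116, 128 and 96.6 FPKM in healthy pulp (log2 fold change -1.20, SE 0.10, adjusted p = 1.1e-05). The level of LOC103949392 was 30.8, 30.5 and 23.5 FPKM in watercore pulp and 0.95, 1.07 and 0.36 FPKM in healthy pulp, 35.1-fold higher (log2 5.13, SE 0.25, adjusted p = 8.2e-07). None of the 3 overlapped between groups, where 35.8% of all tested genes lay wholly above and 33.2% wholly below in watercore pulp. LOC103942882 made up 76.8% of the P5C synthase sum in watercore pulp and 45.1% in healthy pulp, LOC103935868 made up 14.8% in watercore pulp and 54.6% in healthy pulp, and LOC103949392 made up 8.41% in watercore pulp and 0.371% in healthy pulp. The sum was 336 ± 11.4 FPKM in watercore pulp and 208 ± 25.5 FPKM in healthy pulp (SD, n = 3 each).

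P5C reductase completes proline synthesis. Its 2 genes lie 725 bases apart, and neither was called: LOC103937889 had 110 ± 4.28 FPKM in watercore pulp and 81.8 ± 9.94 FPKM in healthy pulp (log2 fold change 0.41, SE 0.09, adjusted p = 0.0028), and LOC103937888 overlapped between groups (adjusted p = 0.67). Proline dehydrogenase starts the oxidation of proline in mitochondria. LOC103962694 had 2.90, 2.0 and 2.37 FPKM in watercore pulp and 8.71, 9.11 and 8.37 FPKM in healthy pulp (log2 fold change -1.86, SE 0.16, adjusted p = 1.3e-05). LOC103966826 had 76 counts over the watercore libraries and none in healthy pulp, at least 25.1-fold higher with the same floor of 3 counts. It was called higher, but it passed the count filter through watercore pulp alone. The proline dehydrogenase sum was 3.55 ± 0.54 FPKM in watercore pulp and 8.73 ± 0.37 FPKM in healthy pulp (SD, n = 3 each). The level of LOC103966826 in watercore pulp, 0.84 ± 0.32 FPKM, was below that of LOC103962694 there.

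The P5C synthase genes on 2 scaffolds each lie beside a folylpolyglutamate synthase gene. LOC103935868 is 12580 bases from LOC103935896, and both were lower in watercore pulp. The level of LOC103935896 was 0.75 ± 0.04 FPKM in watercore pulp and 2.24 ± 0.21 FPKM in healthy pulp (log2 fold change -1.59, SE 0.22, adjusted p = 0.00026). LOC103942882 is 11623 bases from LOC103942842, which had a log2 fold change of 0.32 (SE 0.07, adjusted p = 0.0029). Without the folylpolyglutamate synthases, 31 of 79 tested members were higher and 10 were lower.

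**Figure D4:**
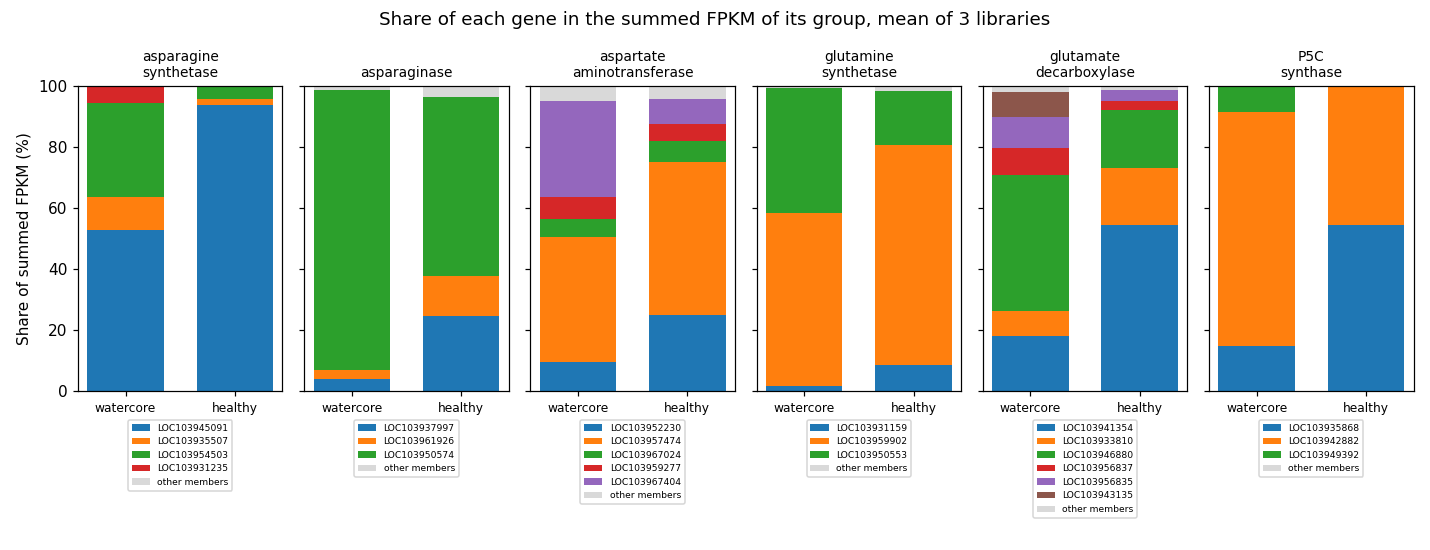
Share (%) of each gene in the summed FPKM of its group, as the mean of 3 libraries, for 6 groups, with watercore pulp at the left of each panel and grey for members not named in the legend. The leading gene is the same in both groups of libraries for asparagine synthetase, asparaginase, aspartate aminotransferase and glutamine synthetase, and differs for glutamate decarboxylase and P5C synthase.

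Nitrate reductase, which starts nitrate reduction, was higher in watercore pulp. LOC103956697 had 37.4, 37.2 and 33.8 FPKM in watercore pulp and 1.49, 2.05 and 1.66 FPKM in healthy pulp, 20.6-fold higher (log2 4.37, SE 0.11, adjusted p = 5.9e-08). LOC103956979, the second gene, was under 0.5 FPKM in every library (log2 fold change 1.31, SE 0.72, adjusted p = 0.14, or 2.35 without healthy library 1 with an adjusted p of 0.041). LOC103937987, the only nitrite reductase and the next step of the pathway, had 3.21, 2.69 and 2.80 FPKM in watercore pulp and 2.75, 3.02 and 1.78 FPKM in healthy pulp. Its libraries overlapped (log2 fold change 0.19, SE 0.23, adjusted p = 0.50).

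Nitrate transporters were the largest group, with 90 genes of which 28 were tested. Among the 28, 7 were higher and 4 were lower, beside 17.6% and 7.54% of all tested genes. Of these 90, 83 belong to the NRT1/PTR family (NPF), whose members carry nitrate, peptides or hormones, and 37 of the 83 had no count in any library. The 5 NRT2 genes encode high-affinity nitrate carriers, and the 2 NRT3 genes encode their partner proteins. LOC103965822, named NRT2.7-like after a carrier of the vacuole membrane in Arabidopsis seeds, was the most abundant, with 204, 197 and 220 FPKM in watercore pulp and 351, 362 and 435 FPKM in healthy pulp. No library overlapped, but its log2 fold change of -0.90 (SE 0.09, adjusted p = 3.5e-05) did not reach the fold threshold. LOC103926951, also named NRT2.7, had 22.7, 21.3 and 25.1 FPKM in watercore pulp and 43.9, 43.9 and 44.3 FPKM in healthy pulp (log2 fold change -0.95, SE 0.07, adjusted p = 8.1e-06, or -1.01 without watercore library 3). LOC108868592, 3549 bases from LOC103965822, had a log2 fold change of -0.91 (SE 0.31, adjusted p = 0.027), and -1.06 without healthy library 2 and -1.05 without watercore library 2. The NRT2 sum was 234 ± 13.3 FPKM in watercore pulp and 431 ± 46.9 FPKM in healthy pulp (SD, n = 3 each).

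Of the weakly expressed NRT2 and NRT3 genes, LOC103947691 (NRT2.4-like) was higher, with 1.29, 1.17 and 1.38 FPKM in watercore pulp and 0.28, 0.47 and 0.78 FPKM in healthy pulp (log2 fold change 1.31, SE 0.37, adjusted p = 0.012). Its neighbour LOC103947692 overlapped between groups (log2 fold change 1.31, SE 0.57, adjusted p = 0.073), with a log2 fold change of 1.87 without healthy library 1 and 1.62 without watercore library 1 and adjusted p of 0.039 and 0.044. LOC103952941 (NRT3.2-like) had 3.11, 3.42 and 2.83 FPKM in watercore pulp and 1.26, 1.24 and 0.21 FPKM in healthy pulp (log2 fold change 1.76, SE 0.48, adjusted p = 0.011).

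The 2 most abundant NPF genes stand side by side on a scaffold. LOC103943136, NPF8.3-like, a peptide carrier by its Arabidopsis namesake, had 117, 130 and 112 FPKM in watercore pulp and 179, 198 and 215 FPKM in healthy pulp (log2 fold change -0.73, SE 0.08, adjusted p = 6.6e-05). Its tandem neighbour LOC103943137, 916 bases away, had 50.4 ± 3.21 FPKM in watercore pulp and 62.8 ± 2.0 FPKM in healthy pulp (log2 fold change -0.33, SE 0.06, adjusted p = 0.0015). Neither reached the fold threshold, and how reads were split between such similar genes was not stated. LOC103935394, NPF2.11-like, had 3.80, 3.04 and 3.31 FPKM in watercore pulp and 0.051, 0.067 and 0.018 FPKM in healthy pulp, or 596 counts against 8 over the groups (log2 fold change 6.14, SE 0.30, adjusted p = 8.2e-07). Arabidopsis NPF2.11 carries glucosinolates.

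The tandem pair LOC103963222 and LOC103963225, NPF8.2-like and 4219 bases apart, were both higher. LOC103963222 had 3.19, 4.93 and 2.81 FPKM in watercore pulp and 0.089, 0.18 and 0.061 FPKM in healthy pulp (log2 fold change 5.0, SE 0.40, adjusted p = 1e-05). LOC103963225 had 194 counts in watercore pulp and 4 in healthy pulp (log2 fold change 5.47, SE 0.63, adjusted p = 8.8e-05). The other NPF genes called higher were LOC103939256 (NPF7.3-like, log2 fold change 2.49, SE 0.33, adjusted p = 0.00018) and LOC103953572 (NPF5.4-like, log2 fold change 2.63, SE 0.55, adjusted p = 0.0027).

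LOC103942792, NPF5.6-like, overlapped between groups (log2 fold change -1.61, SE 0.66, adjusted p = 0.058) and passed the test without healthy library 3 (log2 fold change -2.05, adjusted p = 0.0066). The 4 NPF genes called lower all carry names of subfamily 5. LOC103948147, NPF5.4-like, had 1.79, 2.17 and 1.69 FPKM in watercore pulp and 6.94, 4.83 and 5.65 FPKM in healthy pulp (log2 fold change -1.64, SE 0.19, adjusted p = 8.7e-05). LOC103953770 and LOC103953775, both NPF5.1-like, had 14 and 4 counts over the watercore libraries against 125 and 51 over the healthy libraries (log2 fold changes of -3.13, SE 0.33, and -3.56, SE 0.51). LOC103927549, NPF5.6-like, had a log2 fold change of -1.45 (SE 0.28, adjusted p = 0.0018). The NPF sum was 244 ± 19.4 FPKM in watercore pulp and 327 ± 19.1 FPKM in healthy pulp (SD, n = 3 each).

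Ammonium transporters were near 0 in healthy pulp. Of 11 genes 4 were tested, 3 were higher and none was lower, beside 17.6% and 7.54% of all tested genes. LOC103960752, an AMT1 member 3-like gene, had 5.77, 6.49 and 6.73 FPKM in watercore pulp and 0.71, 0.48 and 0.77 FPKM in healthy pulp, 9.60-fold higher (log2 3.26, SE 0.22, adjusted p = 3.6e-06). LOC103965119, an AMT2 gene, had 162 counts over the watercore libraries and 5 over the healthy libraries (log2 fold change 4.91, SE 0.46, adjusted p = 2.5e-05). LOC103933639, an AMT1 member 1-like gene, had 259 counts over the watercore libraries and 3 over the healthy libraries, a ratio of 85.6 with an exact 95% interval of 29.0 to 418 that covers counting error only (adjusted p = 3.2e-05). This gene lies wholly within another gene on the same strand, so reads of the pair may not be told apart. LOC103963199 overlapped between groups (log2 fold change 1.11, SE 0.48, adjusted p = 0.073), and passed the test without healthy library 3 (log2 fold change 1.73, adjusted p = 0.013). The sum over the 11 genes was 13.7 ± 1.42 FPKM in watercore pulp and 1.62 ± 0.37 FPKM in healthy pulp (SD, n = 3 each).

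Amino acid permeases carry amino acids into cells together with protons. Of 12 genes 5 were tested, 3 were higher and none was called lower, beside 17.6% and 7.54% of all tested genes. The most abundant, LOC103966297 (permease 3-like), had 172, 188 and 166 FPKM in watercore pulp and 92.0, 106 and 73.3 FPKM in healthy pulp. Its libraries did not overlap, and its log2 fold change of 0.94 (SE 0.12, adjusted p = 0.00014) stood under the threshold, at 1.07 without healthy library 2. LOC103947957 (permease 6-like) had 31.1, 30.2 and 29.0 FPKM in watercore pulp and 61.1, 60.1 and 57.0 FPKM in healthy pulp (log2 fold change -0.99, SE 0.06, adjusted p = 2.1e-06), and it passed the threshold at -1.02 without healthy library 3 and at -1.01 without watercore library 1. The called genes were less abundant: LOC103935891 (log2 fold change 1.27, SE 0.24, adjusted p = 0.0017), LOC103934899 (1.38, SE 0.35, adjusted p = 0.0073) and LOC103928196 (1.10, SE 0.26, adjusted p = 0.0050, and 0.95 on the log2 scale without watercore library 2). LOC103966297 made up 81.1% of the permease sum in watercore pulp and 58.3% in healthy pulp, and LOC103947957 made up 13.96% in watercore pulp and 38.8% in healthy pulp. LOC103940399, a permease 7 with too few counts to be tested, had 56 counts over the watercore libraries and 1 over the healthy libraries. Another untested permease 7, LOC103940395, lies 19404 bases away and went the other way, with 6 counts over the watercore libraries and 30 over the healthy libraries.

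Other genes of nitrogen and amino acid handling, taken by 17 product names, showed fewer calls. Of 165 such genes 79 were tested, 16 were higher (20.3%, beside the 17.6% given above) and 3 were lower (3.80%, beside 7.54%), with a median log2 fold change of 0.03. Lysine histidine transporters, broad amino acid importers, were higher for 4 of 6 tested genes. LOC103936684 of that group had 101, 124 and 91.5 FPKM in watercore pulp and 14.7, 27.2 and 8.26 FPKM in healthy pulp (log2 fold change 2.65, SE 0.34, adjusted p = 0.00015). Vacuolar amino acid transporters were higher for 3 of 6 tested genes, led in level by LOC103951062 with 23.7, 26.1 and 25.5 FPKM in watercore pulp and 4.77, 6.12 and 7.57 FPKM in healthy pulp (log2 fold change 2.02, SE 0.14, adjusted p = 5.1e-06). Proline transporters were higher for 2 of 4 tested genes and GABA transporters for 2 of 4. Of 14 tested cationic amino acid transporters, 1 was higher and 1 was lower. With the adjusted p alone these counts were 1 and 5, beside 32.3% and 30.4% of all tested genes. The sum of the cationic amino acid transporters was 279 ± 17.3 FPKM in watercore pulp and 305 ± 2.53 FPKM in healthy pulp (SD, n = 3 each). Of the proline transporters, LOC103942644 had a log2 fold change of 1.05 (SE 0.21, adjusted p = 0.0022), which was 0.84 without healthy library 2 and 0.94 without watercore library 3.

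On the way out of GABA, neither of 2 GABA transaminases was called, and 1 of 3 succinate-semialdehyde dehydrogenases was lower, LOC103932285 (log2 fold change -2.28, SE 0.29, adjusted p = 0.00015). With the adjusted p alone, 1 of the 3 was higher and 1 was lower, beside 32.3% and 30.4% of all tested genes. The higher gene, LOC103932632, had a log2 fold change of 0.87 (SE 0.17, adjusted p = 0.0017), or 1.01 without healthy library 1, and its libraries did not overlap. The NIN-like proteins, transcription factors that act in the nitrate response of Arabidopsis, summed to 54.9 ± 0.44 FPKM in watercore pulp and 31.3 ± 0.94 FPKM in healthy pulp. None of the 5 tested reached the fold threshold, and 3 were higher with the adjusted p alone, beside 32.3% of all tested genes. The most abundant of them, LOC103933819, had 38.4, 41.0 and 39.2 FPKM in watercore pulp and 20.9, 19.7 and 20.9 FPKM in healthy pulp (log2 fold change 0.94, SE 0.06, adjusted p = 2.1e-06). The arginase LOC103957936 had a log2 fold change of -0.47 (SE 0.10, adjusted p = 0.0035).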

How the data were processed

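The authors trimmed the reads and, per the methods and the labels, mapped them with HISAT2 to the genome of Pyrus betulifolia. Identifiers of another annotation, 38969 genes on 1672 scaffolds, stand in the table, and neither its build nor the counting tool and strand setting was stated. The authors deposited an unnormalised count and an FPKM value per gene and library. Their comparison columns (a signal mean for each group, a log2 fold change, a p-value and an adjusted p-value) were deposited too and were not used.

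Counts were tested with edgeR 4.0.16 (R 4.3.3) with TMM factors, filterByExpr and Benjamini-Hochberg adjustment over 21200 genes. The biological coefficient of variation was 0.143. The variance between replicate libraries, as chi-square per degree of freedom, was 4.28 to 10.6 times that of counting noise. Alternatives were DESeq2 1.42.0, limma 3.58.1 on log2(FPKM + 1) and log2(FPKM + 0.1) of the deposited FPKM, RLE and total-count scaling, no filter, at least 10 counts in every library, a replicate block, gene length offsets, no minimum fold change and each library left out. The edgeR, DESeq2 and limma scripts were tested on simulated data. Sums were compared by an exact permutation test (scipy 1.17.1). Intervals and floors (3 counts over a group) cover counting error only.

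The members and lists were chosen with earlier results of these data known. The named genes of each group were the most abundant tested member, every called member up to 4, otherwise the 2 largest and 2 smallest log2 fold changes among called members with a mean of at least 1 CPM, and members within 20 kb of these. The other members named, and the neighbouring genes named, were chosen after their values were seen. NIN-like was read as a whole word, since its letters also occur in unrelated names.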

Additional observations from a re-analysis of the deposited data

How the results depend on the processing

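Under each alternative that changed the scaling, the count model, the filter or the libraries, the genes named in the text kept their direction, except LOC103937888 (log2 fold change 0.04, or -0.02 without watercore library 1) and LOC103937987 (0.19, or -0.002 without healthy library 3), neither of them called. The count of higher members was 31 and lay between 29 and 35 with a library left out, and it was 20 with at least 10 counts in every library, 18 of them among the 31. The count of lower members was 11, lay between 11 and 14 with a library left out, and was 19 with no minimum fold change. Of the neighbouring genes, 16 were higher, or 10 with at least 10 counts in every library, and 3 were lower, or 5 with DESeq2, 5 with no filter on low counts and 1 with limma on log2(FPKM + 1), and between 3 and 6 with a library left out, the highest without healthy library 1. Deviations of same-numbered libraries from their group means had correlations of 0.037, 0.0027 and -0.0026. Whether same-numbered libraries share a tree or fruit was not stated, and these correlations cannot decide it. The replicate block gave 31 higher and 11 lower members and 16 higher and 3 lower neighbouring genes. For the 46 tested genes that the naming rule gave, 655 values under an alternative stayed on their side of the call, 18 lost it and 7 gained it, and 7 of the 18 came from limma on log2(FPKM + 1). Calls of the other members that changed with a library left out stand beside each gene above. Low counts limit the members near 0 in healthy pulp.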
